A study of Gallus gallus with 23 samples.

Results

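Growth cartilage of the proximal tibiotarsus (TBT), the avian shin bone, was compared between embryonic day (E) 15 and the earlier stages E12 and E13 in control chicken embryos. The comparison takes every control TBT array: 3 at E15 against 6 at the younger stages (3 at E12 and 3 at E13), 9 of the 23 arrays in the series. The study asked how embryonic movement shapes the growth of limb elements. It profiled distal femur and proximal TBT cartilage from control embryos and from embryos immobilised with decamethonium bromide, a drug that blocks the neuromuscular junction. The control embryos were chicken (Gallus gallus) given the vehicle, Tyrode's solution, onto the chorioallantoic membrane from E10. They had no drug and no genetic change, and no strain is given in the sources used here. Arrays of immobilised embryos, given the drug from E10, enter the filter and the fit described below. Those of the TBT are also set beside the controls near the end of these results. Each replicate was the pooled cartilage of several embryos, so differences between single embryos are not seen. The methods state that ossified bone, marrow and red blood cells were left out, but globin RNA was present in every array. The comparison asks which genes of this cartilage changed between these stages.

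A growth plate lengthens a bone by carrying chondrocytes through a fixed order of states: round resting cells, flat dividing cells in columns, prehypertrophic cells and large hypertrophic cells. Hypertrophic cells lay down type X collagen, mineralise their matrix and draw in vessels and osteoclasts, which remove the cartilage and make room for bone and marrow. The hedgehog, parathyroid hormone-related protein, FGF, BMP, Wnt and IGF pathways set how fast cells divide and when they leave the columns.

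RNA was measured on Affymetrix chicken arrays, and every value given is a log2 value that the authors obtained with robust multi-array averaging, so that a difference of 1 is a doubling. Array medians lay between 5.78 and 5.85 in the 23 arrays. Pearson's r across probe sets was 0.967 to 0.983 between control TBT arrays of the same stage, 0.972 to 0.98 between E12 and E13 arrays and 0.937 to 0.976 between E15 and younger arrays. The tissue label was borne out by the cartilage genes. ACAN, the core protein of the main cartilage proteoglycan, read 12.44 to 12.62 in all 9 arrays, and SOX9, the transcription factor that defines chondrocytes, read 9.14 to 9.51. COL2A1, IHH, PTHLH and PTH1R, further landmarks of the growth plate, had no probe set with a single gene symbol in the annotation used and were not analysed here.

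Of the 3 E15 arrays, replicate 3 lay farthest from the younger stages. Among probe sets called higher at E15 it was the highest of the 3 arrays in 246 of 412, and among those called lower it was the lowest in 436 of 629, whereas replicate 1 was the most extreme in 34 and 55. The mean distance from the younger arrays was 0.91 for replicate 3, 0.76 for replicate 2 and 0.59 for replicate 1 over the genes that rose, and it was -0.75, -0.51 and -0.46 over those that fell. The main counts of calls are therefore given with and without it. Each array also carries a code ending in 05, 07 or 09 whose meaning is not given in the sources used here. The E15 arrays carry 07, 09 and 07, the E13 arrays 09, 09 and 07, and the E12 arrays 07, 05 and 09, so that differences within 07 and within 09 could be computed.

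A probe set was called at an adjusted p under 0.05 in a limma fit of the 8 group means. Of 11004 probe sets tested, 1041 were called between E15 and E12/13, which is 9.46% of those tested. Of these, 412 (3.74%) were higher and 629 (5.72%) were lower at E15. The share of all probe sets, set beside the lists below, includes probe sets without a gene symbol, which no list holds. Of the 7417 tested probe sets with 1 symbol, 808 were called. The changes were moderate, with a median size of 0.52 among the calls, and 148 calls exceeded 1, of which 86 were higher and 62 lower. The median difference of all probe sets was -0.01. The 3 E15 arrays lay above all 6 younger arrays in 678 probe sets (6.16%) and below them in 967 (8.79%), whether called or not. Without E15 replicate 3 the count was 323 (132 higher, 191 lower), of which 300 were among the 1041. With the array code as a block it was 774 (315 higher, 459 lower). The filter kept probe sets by their spread over all 23 arrays. A gene that is high at 1 stage only can thus pass it through that change. Counts, medians and summed levels of lists over the members past the filter are therefore descriptions. A fit of all 20804 probe sets without the filter called 896 (4.31%), of which 397 (1.91%) were higher and 499 (2.4%) lower. Values from it are given for some of the lists. In pooled tissue such as this, fewer cells of a type and less RNA per cell cannot be told apart.

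The E13 arrays sat closer to E12 than to E15, which is also farther from E13 in days. E13 against E12 gave 0 called probe sets with limma, where 644 had an unadjusted p under 0.05, and E15 against E13 gave 295 (2.68%), of which 113 (1.03%) were higher and 182 (1.65%) lower. E15 against E12 gave 969 (8.81%), with 423 (3.84%) higher and 546 (4.96%) lower. Of the 412 rises the E13 mean lay between the other stages in 312, and the median step was 0.13 from E12 to E13 and 0.53 from E13 to E15. Of the 629 falls it lay between them in 464, with median steps of -0.08 and -0.43. These probe sets were picked by the difference of E15 from the mean of E12 and E13. That choice makes the later step large, so the steps and the place of E13 are descriptions only. The count against E13 alone was 58 without E15 replicate 3, 93 without E13 replicate 1, 99 without E13 replicate 2 and 138 without E13 replicate 3. The count against E12 alone was 392 without E15 replicate 3 and 483 and 581 without E12 replicates 1 and 2.

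Matrix genes of cartilage had no common direction. Of 32 cartilage matrix genes 22 passed the filter on spread. With limma 3 were called higher and 0 lower, or 13.6% of those tested against 9.46% of all probe sets. The median was 0.02, with values above 0 in 11 of the 22. The count was 2 higher and 1 lower without E15 replicate 3. All 3 E15 arrays lay above the younger ones in 5 of the 22 and below them in 3. Over all probe sets the shares were 6.16% and 8.79%. COMP, a glycoprotein that ties collagen fibrils and marks mature and load-bearing cartilage, read 8.58, 9.18 and 9.88 (lowest, median, highest) in the 6 younger arrays and 10.91, 11.12 and 11.62 in E15 replicates 1, 2 and 3. Every E15 array lay above every younger array, and the rise was 1.96 ± 0.25 (SE) on the log2 scale or 3.88-fold (adjusted p = 0.000227). The COMP mean was 8.85 ± 0.26 (SD, n = 3) at E12, 9.67 ± 0.35 at E13 and 11.22 ± 0.36 at E15. MGP, an inhibitor of mineral deposition, read 10.92, 11.25 and 11.44 in the younger arrays and 11.7, 11.89 and 12.04 at E15, with no overlap (0.67 ± 0.09, adjusted p = 0.000432). MATN3, a matrilin of growth cartilage, rose by 0.69 ± 0.17 (adjusted p = 0.0179), a call lost without E15 replicate 3 (adjusted p = 0.16). CHADL, a chondroadherin-like matrix protein, differed by -0.51 ± 0.16 without overlap (adjusted p = 0.0559), and by -0.66 ± 0.2 on its other probe set (adjusted p = 0.046). The aggregate-forming proteoglycan gene ACAN differed by -0.03 ± 0.06 and SOX9 by -0.11 ± 0.11, both short of the threshold.

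**Figure D1:**
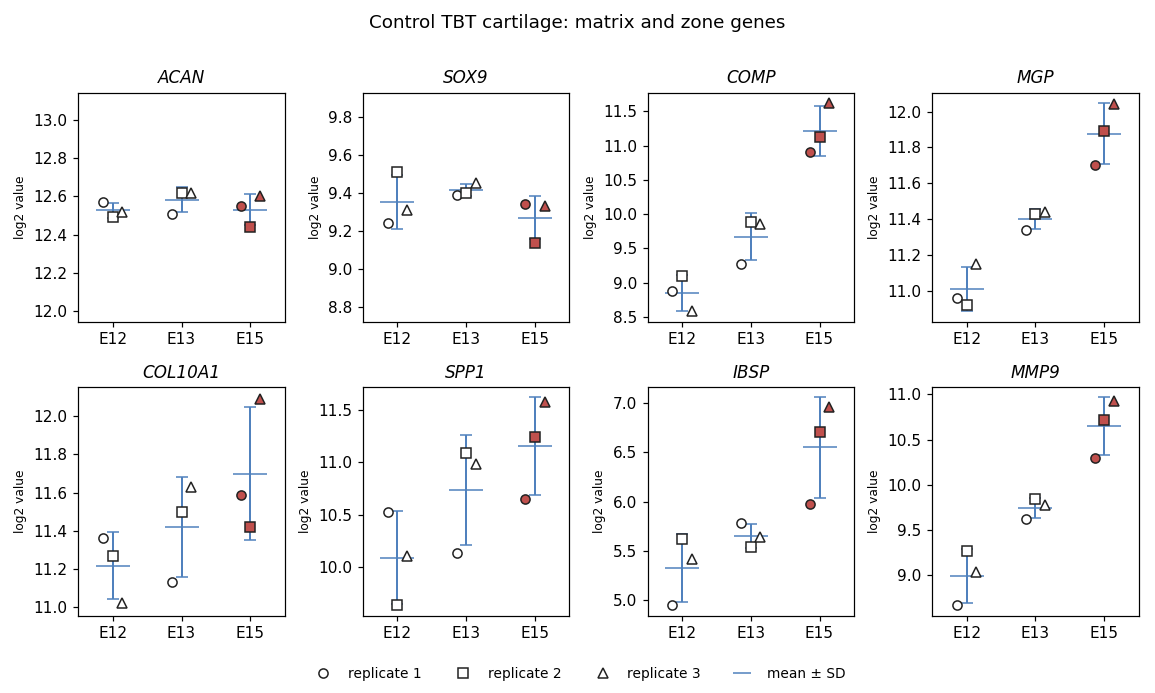
Log2 values of 8 matrix and zone genes in each control TBT array (y axis, its own scale in each panel) at E12, E13 and E15 (x axis). Symbols mark the replicate number, which does not pair arrays across stages, and the blue bar is the mean ± SD of 3 arrays. COMP, MGP, IBSP and MMP9 at E15 lie above all younger arrays, whereas ACAN, SOX9, COL10A1 and SPP1 overlap between stages.

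Genes of prehypertrophic and hypertrophic chondrocytes and of mineralisation leaned upward. Of 27 hypertrophic genes tested 7 were called higher and 0 lower (25.9%, against 9.46% of all probe sets). The median was 0.38, with 21 above 0. Within array codes 07 and 09 the median was 0.36 and 0.33. Of 17 mineralisation genes 5 were called higher and 0 lower (29.4%), with a median of 0.36 and 14 above 0. Without E15 replicate 3 the hypertrophic count was 3 with a median of 0.23, and the mineralisation count was 2 with a median of 0.34.

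Among their members, SMPD3, a sphingomyelinase needed for matrix mineralisation, read 10.56, 10.84 and 10.96 in the younger arrays and 11.4, 11.29 and 11.86 at E15 (0.71 ± 0.12, adjusted p = 0.00186), whereas its other probe set differed by 0 ± 0.07 (adjusted p = 0.991). F13A1, the factor XIII transglutaminase that crosslinks matrix around hypertrophic cells, read 10.12, 10.9 and 11.25 in the younger arrays and 11.7, 11.57 and 12.28 at E15, a rise of 1.03 ± 0.21 (adjusted p = 0.00608). For both genes, on these probe sets, the E15 arrays lay above all younger ones with replicate 3 highest, and without it SMPD3 stayed past the threshold (adjusted p = 0.02) while F13A1 did not (adjusted p = 0.067). IBSP, an acidic protein of mineralising matrix, read 4.95, 5.58 and 5.78 in the younger arrays and 5.98, 6.71 and 6.96 at E15 (1.06 ± 0.23, adjusted p = 0.00898), and its adjusted p was 0.09 without replicate 3. The younger IBSP values lay below the array medians. SFRP5, a secreted Wnt inhibitor, rose by 0.61 ± 0.13, BMP6, a BMP made by hypertrophic cells, by 0.56 ± 0.14, and ANXA5, an annexin of matrix vesicles, by 0.34 ± 0.07. The calls of BMP6 (adjusted p = 0.19) and ANXA5 (0.078) were lost without replicate 3.

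Other than IBSP, the classical landmarks of the hypertrophic zone did not pass the threshold. COL10A1, the collagen confined to hypertrophic cartilage, read 11.02, 11.31 and 11.63 in the younger arrays and 11.59, 11.42 and 12.09 at E15 (0.38 ± 0.32, adjusted p = 0.5), and its groups overlapped. SPP1 (osteopontin) differed by 0.74 ± 0.25 (adjusted p = 0.0697), MMP13, the collagenase of late hypertrophic cells, by 0.54 ± 0.21, ALPL, the phosphatase that frees phosphate for mineral, by 0.39 ± 0.16, and the vessel growth factor VEGFA by 0.16 ± 0.15. The transcription factors RUNX2 and MEF2C, which drive hypertrophy, differed by -0.24 ± 0.12 and 0.05 ± 0.1. SPP1 passed the threshold without E12 replicate 1 or without E15 replicate 1, and MMP13 and COL10A1 in no setting that left out an array.

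Genes for breaking down matrix moved both ways. Of 30 protease and inhibitor genes 4 were called higher and 3 lower (23.3%, against 9.46% of all probe sets). The median was 0.07, and the counts without E15 replicate 3 were 4 and 2. MMP10 (stromelysin 2) read 7.64, 7.8 and 8.65 in the younger arrays and 9.94, 9.56 and 10.55 at E15, a 4.27-fold rise (2.1 ± 0.41, adjusted p = 0.00432). MMP9, the gelatinase of osteoclasts and of cells at the cartilage front, had 2 probe sets that rose by 1.64 ± 0.19 and 1.29 ± 0.17. The brighter of the 2, which rose by 1.29, read 8.66, 9.44 and 9.84 in the younger arrays and 10.3, 10.72 and 10.93 at E15, without overlap. TIMP3, an inhibitor of metalloproteinases, rose by 0.38 ± 0.09, a call lost without E15 replicate 3 (adjusted p = 0.133). In the other direction, ADAMTS3, a procollagen N-proteinase, read 11.16 to 11.29 in the younger arrays and 10.86, 10.84 and 10.75 at E15 (-0.42 ± 0.06, adjusted p = 0.000272), and ADAMTS20 differed by -1.02 ± 0.17 (adjusted p = 0.0017).

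**Figure D2:**
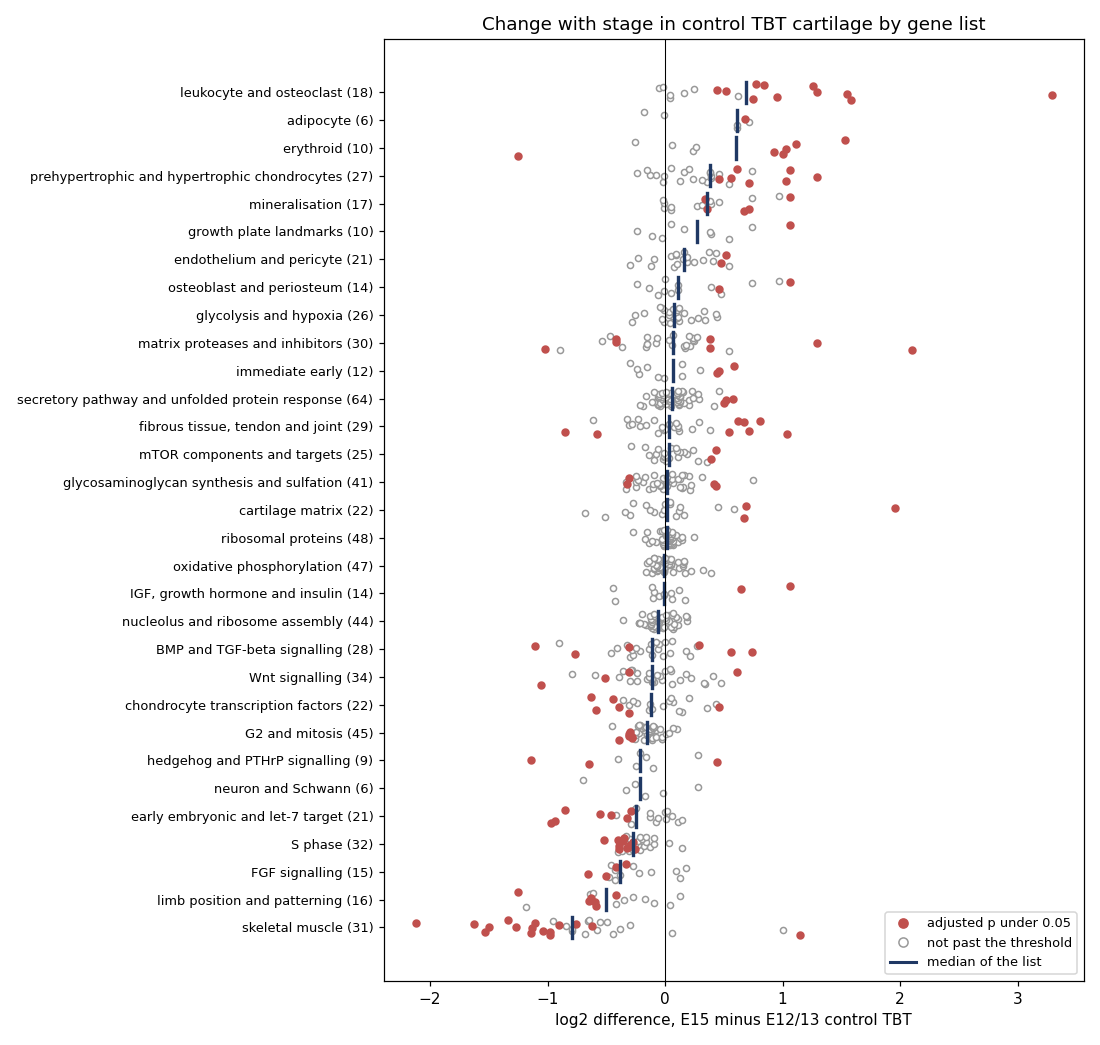
Log2 difference of E15 minus E12/13 control TBT (x axis) for each gene of the lists with at least 6 members past the filter (y axis, number of members in brackets). Red points have an adjusted p under 0.05, open points do not, and the bar is the list median, which runs from -0.79 for skeletal muscle to 0.69 for leukocytes and osteoclasts.

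Several genes of early limb identity and of the early embryo were lower at E15. Of 16 limb position and patterning genes tested 6 were called lower and 0 higher (37.5%, against 9.46% of all probe sets). The median was -0.5, with 14 below 0. Over all 31 members on the array, in the fit without the filter, 5 were lower and 1 higher, with a median of -0.14 and 23 below 0. TBX4, the transcription factor that specifies the hindlimb, read 7.45, 7.49 and 7.66 in the younger arrays and 7.07, 6.98 and 6.56 at E15 (-0.65 ± 0.12, adjusted p = 0.00313). PITX1, which acts upstream of TBX4, read 10.16 to 10.29 in the younger arrays and 9.83, 9.69 and 9.39 at E15 (-0.59 ± 0.12, adjusted p = 0.00559). Both were lower in every E15 array than in any younger array, as were LMX1B, the dorsal limb factor (-0.6 ± 0.12), and HOXA11, the Hox gene of the middle limb segment (-0.63 ± 0.15). HOXC10, a posterior Hox gene of the hindlimb, differed by -1.25 ± 0.3 (adjusted p = 0.0152), and by -0.86 ± 0.22 on its other probe set. On the first probe set HOXC10 lay below the array medians at every stage, and that call was lost without E15 replicate 2 or 3. Without E15 replicate 3 the patterning count was 1 (TBX4) with a median of -0.34.

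Of 21 early embryonic and let-7 target genes 7 were called lower and 0 higher (33.3%, against 9.46% of all probe sets). The median was -0.25. HMGA2, a chromatin protein of proliferating embryonic cells, read 7.76, 8.04 and 8.29 in the younger arrays and 7.31, 6.91 and 6.96 at E15, a 1.96-fold fall (-0.97 ± 0.13, adjusted p = 0.000225). The mRNA-binding protein IGF2BP2 read 8.37 to 8.55 at the younger stages and 7.77, 7.86 and 7.21 at E15 (-0.85 ± 0.13, adjusted p = 0.000586), and its relatives IGF2BP1 and IGF2BP3 fell by 0.46 and 0.32 on the log2 scale. PLAGL1, an imprinted zinc finger gene in mammals, differed by -0.55 ± 0.07 and CRABP1, a retinoic acid carrier, by -0.94 ± 0.19. Without replicate 3 the count was 4, namely HMGA2, IGF2BP2, PLAGL1 and CRABP1.

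Of 22 transcription factors of chondrocytes 5 were called lower and 1 higher (27.3%, against 9.46% of all probe sets). The median was -0.12. Besides PITX1, SOX5, a partner of SOX9, read 11.41 to 11.59 in the younger arrays and 11.36, 11.11 and 11.11 at E15 (-0.31 ± 0.07, adjusted p = 0.00955), NFIB, a nuclear factor I gene, differed by -0.63 ± 0.15, and FOXC1, a forkhead factor of early skeletal cells, by -0.39 ± 0.08. DLX5, a factor of hypertrophic cells and osteoblasts, was the member called higher, at 7.67 to 7.83 in the younger arrays and 8.23, 8.15 and 8.33 at E15 (0.46 ± 0.12, adjusted p = 0.02). None of these 5 named genes kept its call without E15 replicate 3, where the adjusted p-values were 0.056 to 0.15.

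Signalling genes moved both ways, with receptors and modulators among the falls. In the hedgehog and PTHrP list 9 of 17 genes were tested. Of these, 2 were called lower and 1 higher (33.3%, against 9.46% of all probe sets). SCUBE2, which releases hedgehog ligands from cells, read 10.66, 10.8 and 10.93 in the younger arrays and 10.05, 9.81 and 9.11 at E15, a 2.2-fold fall (-1.14 ± 0.14, adjusted p = 0.000185). GLI3, the transcription factor that represses hedgehog targets, read 9.41, 9.52 and 9.77 and then 9.22, 9.04 and 8.45 (-0.65 ± 0.14, adjusted p = 0.00791). HHIP, a hedgehog-binding inhibitor, rose by 0.44 ± 0.12, while the targets PTCH1 and GLI1 differed by -0.21 and -0.16 without passing the threshold. SCUBE2 held without E15 replicate 3 (adjusted p = 0.00029), whereas GLI3 (0.075) and HHIP (0.16) did not.

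In the BMP and TGF-beta list 3 of 28 genes were called higher and 3 lower (21.4%, against 9.46% of all probe sets). The median was -0.11. BMPR1B, the type I BMP receptor of cartilage condensations, read 7.12, 7.19 and 7.59 in the younger arrays and 6.34, 6.11 and 6.07 at E15 (-1.11 ± 0.12, adjusted p = 9.31e-05), and ACVR2B, an activin type II receptor, read 6.76 to 7.34 and then 6.22, 6.35 and 6.11 (-0.77 ± 0.12). Neither receptor overlapped between stages, and both held in every setting that left out an array. SMAD1, which carries the BMP signal to the nucleus, differed by -0.31 ± 0.06, and BMP6, described above, was among the rises. Without E15 replicate 3 the list had 1 gene called higher and 2 lower.

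Of 15 FGF pathway genes 4 were called lower and 0 higher (26.7%, against 9.46% of all probe sets). The median was -0.38, with 12 below 0. ETV1, a transcription factor induced by FGF, read 9.31 to 9.59 in the younger arrays and 8.86, 8.9 and 8.6 at E15 (-0.66 ± 0.08, adjusted p = 0.000216). The feedback inhibitor IL17RD differed by -0.5 ± 0.13, the receptor FGFR4 by -0.33 ± 0.09 and the decoy receptor FGFRL1 by -0.42 ± 0.13. The other FGFR4 probe set differed by -0.23 ± 0.13 and was not called (adjusted p = 0.29). The FGFRL1 call was lost when any of 7 of the 9 arrays was left out. Without E15 replicate 3 the count was 1 (ETV1) with a median of -0.16.

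In the Wnt list 3 of 34 genes were called lower and 1 higher, with a median of -0.11. This was 11.8% of the list against 9.46% of all probe sets. Without E15 replicate 3 the counts were 2 lower and 1 higher. LGR5, the R-spondin receptor that amplifies Wnt signals, read 6.43, 6.52 and 6.73 in the younger arrays and 5.65, 5.67 and 5.12 at E15, a 2.08-fold fall without overlap (-1.06 ± 0.17, adjusted p = 0.00105). APCDD1, a Wnt inhibitor, differed by -0.51 ± 0.12 and the transcription factor TCF7L2 by -0.31 ± 0.09. The TCF7L2 call was lost when any of 8 of the 9 arrays was left out, and that of APCDD1 without E15 replicate 2 (adjusted p = 0.054). Of 14 genes of the IGF, growth hormone and insulin list 2 were called (14.3%), both higher, with or without E15 replicate 3. NPR3, the clearance receptor for the growth-promoting natriuretic peptide CNP, read 4.2, 4.69 and 5.17 in the younger arrays and 5.66, 5.62 and 6.03 at E15 (1.06 ± 0.19, adjusted p = 0.00217). The younger NPR3 values and those of E15 replicates 1 and 2 lay below the array medians. IRS4, an insulin receptor substrate, read 9.14, 9.43 and 9.68 and then 10.05, 9.8 and 10.32 (0.65 ± 0.11, adjusted p = 0.00223). Its difference was 0.9 within code 07 and 0.25 within code 09. Each of these receptors and substrates at E15 lay wholly on its own side of the younger arrays.

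**Figure D3:**
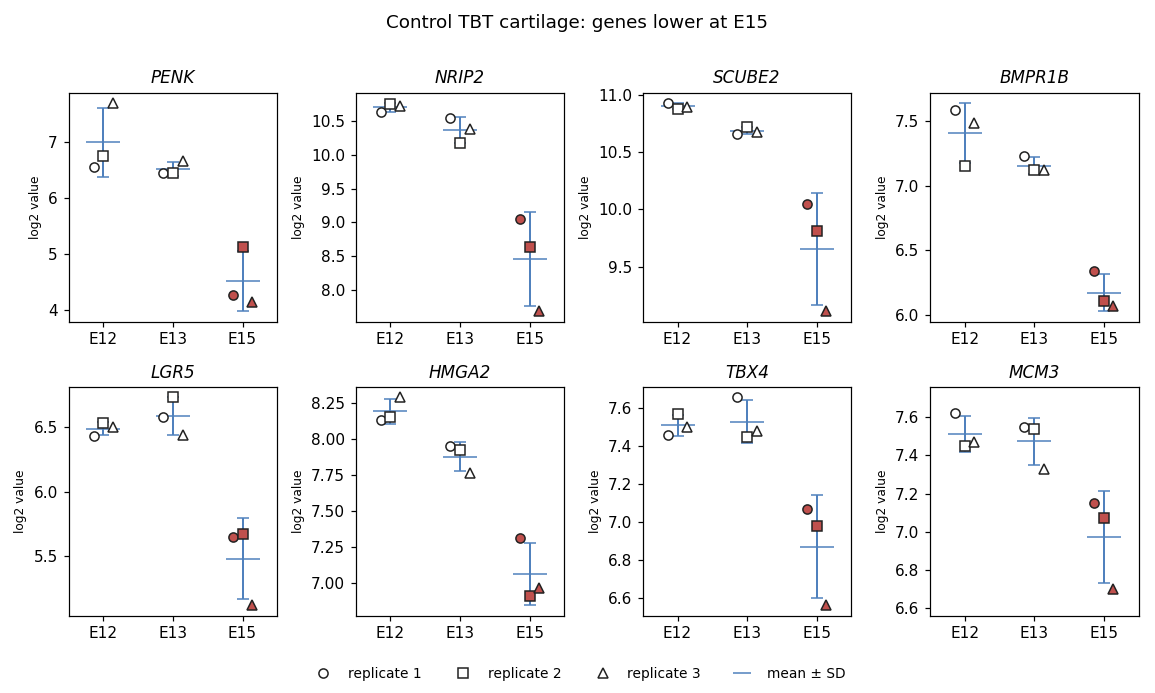
Log2 values of 8 genes that were lower at E15 in each control TBT array (y axis, its own scale in each panel) at E12, E13 and E15 (x axis). Symbols mark the replicate number and the blue bar is the mean ± SD of 3 arrays. In all 8 panels the E15 arrays lie below every younger array, and replicate 3 is the lowest except in HMGA2, where replicate 2 reads 6.91.

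Genes of the dividing cell were slightly lower at E15. Of 32 S phase genes 10 were called lower and 0 higher (31.2%, against 9.46% of all probe sets). In this list 30 were below 0, with a median of -0.27. MCM3, a subunit of the replicative helicase, read 7.33, 7.5 and 7.62 in the younger arrays and 7.15, 7.07 and 6.7 at E15 (-0.52 ± 0.11, adjusted p = 0.00887). The ribonucleotide reductase subunits RRM1 and RRM2 differed by -0.39 ± 0.08 and -0.36 ± 0.08, and the single-strand binding protein RPA1 by -0.3 ± 0.06. Of 45 genes of G2 and mitosis 6 were called lower and 0 higher (13.3%), and 41 were below 0, with a median of -0.15. The condensin subunit NCAPD2 differed by -0.39 ± 0.09, the kinase TTK by -0.31 ± 0.08 and the topoisomerase TOP2A by -0.31 ± 0.09. Without E15 replicate 3 neither list had a call with limma, and the medians were -0.19 and -0.08. In the fit without the filter 5 S phase genes and 1 gene of G2 and mitosis were called lower. CCND1 (cyclin D1) differed by -0.29 ± 0.07, with an adjusted p of 0.11 without that array.

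Lists for ribosomes and energy metabolism had 0 calls with limma. They were ribosomal proteins (48 tested, median 0.02), nucleolus and ribosome assembly (44, median -0.06), oxidative phosphorylation (47, median -0.01) and glycolysis and hypoxia (26, median 0.08). At an unadjusted p under 0.05 they had 3, 7, 4 and 6 members. Of 64 secretory pathway genes 3 were called higher: SEC61G, a subunit of the translocon, at 7.69 to 7.93 in the younger arrays and 8.25, 8.32 and 8.5 at E15 (0.52 ± 0.09, adjusted p = 0.00162), the collagen foldase FKBP14 (0.58 ± 0.11) and EDEM1, which clears misfolded glycoproteins (0.5 ± 0.1). The secretory count was 4.69% of the list, against 9.46% of all probe sets, and was also 3 without E15 replicate 3. FKBP14 differed by 0.82 within code 07 and 0.29 within code 09. Of 41 genes for glycosaminoglycans 2 were called higher (SULF1, a heparan sulfatase, and HAS2, a hyaluronan synthase) and 2 lower (SULF2, the paralogue of SULF1, and the sulfotransferase NDST2), all by 0.31 to 0.43 in size, which is 9.76% of the list against 9.46% of all probe sets. Of 25 mTOR genes 2 were called higher, ULK1 and SESN1, at 0.39 ± 0.11 and 0.43 ± 0.13, or 8% of the list. Of 12 immediate early genes 3 were called higher, FOSL2, BTG2 and KLF10, at 0.44 to 0.59, or 25% of the list. Over all 20 on the array, in the fit without the filter, 2 were higher and 1 lower, with a median of 0.14. None of the glycosaminoglycan, mTOR or immediate early genes named here passed the threshold without E15 replicate 3.

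Several markers of leukocytes and osteoclasts were higher at E15. Of 18 leukocyte and osteoclast markers past the filter (33 on the array) 11 were called higher and 0 lower. This was 61.1%, against 9.46% of all probe sets, with a median of 0.69. Over all 33, in the fit without the filter, 11 were higher and 0 lower, with a median of 0.25 and 27 above 0. The summed level of the 18 on the linear scale was 4581 to 4981 in the E12 arrays, 5243 to 5373 at E13 and 6330 to 7577 at E15, without overlap. This sum leaves out the markers that did not pass the filter. It includes MMP9, with a mean log2 value of 8.98 at E12 and 10.65 at E15. ATP6V0D2, a proton pump subunit of osteoclasts, read 3.43, 3.6 and 4.73 in the younger arrays, below the array medians, and 6.19, 7.39 and 7.86 at E15 (3.29 ± 0.62, adjusted p = 0.00342). SPI1 (PU.1), the factor that commits myeloid cells, read 6.02, 6.07 and 6.31 and then 6.99, 7.44 and 7.71 (1.26 ± 0.18). The pan-leukocyte gene PTPRC rose by 0.77 ± 0.18, the integrin ITGB2 by 0.84 ± 0.2, the lymphocyte antigen LY86 by 1.55 ± 0.21 and LYZ (lysozyme) by 1.58 ± 0.38. The calls of ITGB2 and LYZ were lost without E15 replicate 2 or 3 (adjusted p = 0.0897 and 0.125 without replicate 3). The younger values of PTPRC, ITGB2 and LYZ lay below the array medians. Within codes 07 and 09 the median of the list was 0.69 and 0.9, and without E15 replicate 3 it was 0.64 with 6 called. MMP9 is a member of this list as well as of the hypertrophic and protease lists, and its share from each cell type was not tested.

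The other large rises without overlap included CSTA (cystatin A), an inhibitor of cysteine proteases, at 3.01, 3.52 and 3.78 in the younger arrays, below the array medians, and 6.33, 6.82 and 7.11 at E15 (3.29 ± 0.53, adjusted p = 0.00105), and RAC2, the Rac GTPase of blood cells (1.77 ± 0.32). PDE6H, an inhibitory phosphodiesterase subunit known from cone photoreceptors, rose by 1.91 ± 0.34, the serpin gene SERPINB10B by 1.66 ± 0.33 and the carbonic anhydrase CA13 by 1.54 ± 0.21. The younger values of PDE6H and SERPINB10B lay below the array medians. PDE6H differed by 2.56 within code 07 and 0.88 within code 09. A set of heterophil granule genes, singled out after their values were seen, rose further. LECT2, a chemotactic protein of myeloid cells, read 3.77, 4.58 and 7.1 in the younger arrays and 6.7, 9.31 and 9.04 at E15 (3.46 ± 0.69, adjusted p = 0.00532). The defensins AvBD7, AvBD1, AvBD6 and DEFB4A and the lysozyme LYG2 rose by 2.82 to 3.39. In all 6 genes the stages overlapped, because E13 replicate 3 was high and E15 replicate 1 was the lowest of its group: AvBD7 was 8.2 in the former and 7.69 in the latter. Differences for LECT2 were 2.08 within code 07 and 4.65 within code 09.

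Most red cell genes past the filter that were called rose, and 1 globin fell. Of 10 erythroid genes past the filter (15 on the array) 5 were called higher and 1 lower (60%, against 9.46% of all probe sets). The median was 0.6, and the counts without E15 replicate 3 were 4 and 0. Over all 15, without the filter, 7 were higher and 1 lower, with a median of 0.6. The summed level of the 10 was 7916 to 10447 over the younger arrays and 13385 to 15713 at E15. The definitive alpha globin HBA1 read 10.86, 11.18 and 11.35 in the younger arrays and 11.93, 12.19 and 12.05 at E15 (0.93 ± 0.14, adjusted p = 0.000567). The minor alpha globin HBAD rose by 1 ± 0.16, from 11.26 to 12.16 in the younger arrays to 12.67 to 12.82 at E15. Globin RNA was thus bright in all 9 arrays, although the methods state that red blood cells were left out. The red cell anion exchanger SLC4A1 rose by 1.53 ± 0.23 and the membrane protein EPB42 by 1.03 ± 0.15. HBE, the epsilon globin made by embryonic red cells, was the gene called lower, at 5.36, 5.85 and 7.06 in the younger arrays and 5.31, 4.25 and 4.83 at E15 (-1.25 ± 0.31, adjusted p = 0.0173). Every E15 array was above the younger ones for HBA1 and below them for HBE, the latter by 0.05 at the narrowest, and HBE missed the threshold without E15 replicate 2 or 3.

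Skeletal muscle genes were lower at E15. Of 31 muscle genes past the filter (43 on the array) 15 were called lower and 1 higher (51.6%, against 9.46% of all probe sets). The median was -0.79, with 28 below 0. Over all 43, without the filter, 14 were lower and 1 higher, with a median of -0.65. The summed level of the 31 was 5076 to 7572 at E12, 4566 to 6229 at E13 and 2410 to 4668 at E15, which overlapped narrowly with E13. ACTC1, the sarcomeric alpha-actin of embryonic muscle, read 8.99, 9.45 and 9.85 in the younger arrays and 7.69, 7.6 and 6.63 at E15 (-2.12 ± 0.46, adjusted p = 0.00875), a call lost without E15 replicate 3 (adjusted p = 0.082). TNNI1, the slow troponin I, read 6.77, 7.38 and 8.21 and then 6.13, 6.17 and 5.65 (-1.5 ± 0.18, adjusted p = 0.000145). CHRNG, the gamma subunit that marks the embryonic acetylcholine receptor, differed by -1.34 ± 0.19, and SMYD1, a methyltransferase of sarcomere assembly, by -1.63 ± 0.3. CHRNG lay below the array medians at every stage. The myogenic factor MYOD1, outside the list, differed by -1.4 ± 0.25. PVALB (parvalbumin), the calcium buffer of fast fibres, was the member called higher (1.15 ± 0.29), and its adjusted p was 0.17 without E15 replicate 3. Without that array the list had 4 members lower and a median of -0.56. The part of residual muscle in the other results was not tested.

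**Figure D4:**
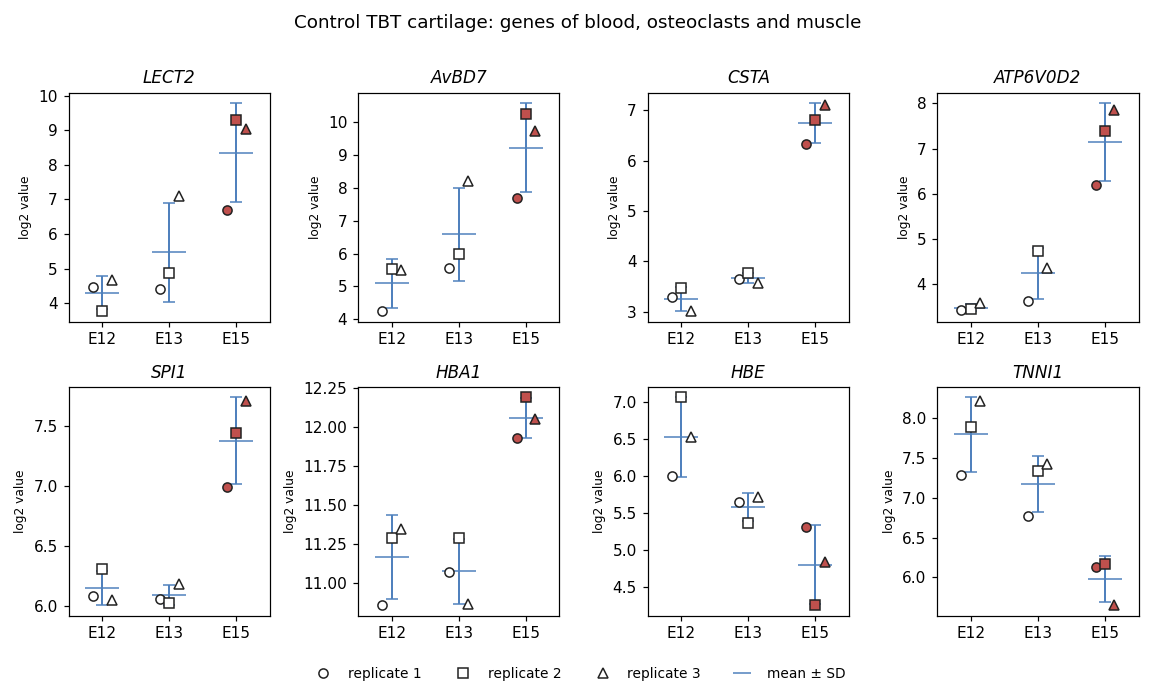
Log2 values of 8 genes of blood cells, osteoclasts and muscle in each control TBT array (y axis, its own scale in each panel) at E12, E13 and E15 (x axis). Symbols mark the replicate number and the blue bar is the mean ± SD of 3 arrays. E13 replicate 3 lies above E15 replicate 1 for LECT2 and AvBD7, while CSTA, ATP6V0D2, SPI1 and HBA1 at E15 lie above, and HBE and TNNI1 below, all younger arrays.

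Markers of further tissues were also tested. Of 29 genes of fibrous tissue, tendon and joint 6 were called higher and 2 lower (27.6%), with a median of 0.03. COL6A2, a chain of the type VI collagen of the pericellular matrix, read 9.67, 10.01 and 10.3 in the younger arrays and 10.58, 11.19 and 10.63 at E15 (0.81 ± 0.13, adjusted p = 0.001). COL6A3 and COL6A1 rose by 0.67 ± 0.12 and 0.62 ± 0.14, all 3 chains being highest in E15 replicate 2, and DPT (dermatopontin) rose by 1.04 ± 0.27. FBLN1, a fibulin, fell by 0.58 on the log2 scale, and without E15 replicate 3 the list had 4 genes called higher and 0 lower. The summed level of this list overlapped between stages (48428 to 56776 over the younger arrays, 49922 to 63253 at E15). Of 14 osteoblast and periosteum genes 2 were called higher, DLX5 and IBSP, or 14.3% of the list. The median was 0.11, and neither gene passed without E15 replicate 3. Of 21 endothelial and pericyte genes 2 were called higher, or 9.52% of the list against 9.46% of all probe sets. They were EMCN (endomucin), which marks capillaries and sinusoids (0.52 ± 0.1), and STAB1 (0.48 ± 0.14). The list median was 0.16, or 0.09 within code 07 and 0.57 within code 09. Without E15 replicate 3, 1 gene of this list was called. ADIPOQ (adiponectin) was the 1 adipocyte gene of 6 called (0.68 ± 0.17), with a list median of 0.61. The younger ADIPOQ values lay below the array medians. PLIN1, the perilipin of fat droplets, entered the list through its brightest probe set (0.61 ± 0.2, adjusted p = 0.0606), while its other 3 of 4 probe sets were called at 0.8 to 1.14. In the last lists 0 of 6 genes of neurons and Schwann cells were called with limma (1 at an unadjusted p under 0.05), and 1 of 2 epidermal genes was (GRHL3, -0.47 ± 0.13). Over all members on the array, without the filter, 1 of 12 and 1 of 9 were called, both lower.

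The largest falls without overlap held several genes of no list. OCM3, an oncomodulin-type calcium-binding protein, read 6.86, 7.72 and 8.16 in the younger arrays and 5.15, 5.19 and 2.9 at E15 (-3.18 ± 0.42, adjusted p = 0.000272), the E15 values lying below the array medians. PENK, the precursor of the enkephalin opioid peptides, read 6.45, 6.61 and 7.7 and then 4.27, 5.13 and 4.15 (-2.25 ± 0.27, adjusted p = 0.000173), its E15 values also lying below the array medians. NRIP2, a nuclear receptor-interacting protein, read 10.17, 10.59 and 10.75 and then 9.05, 8.63 and 7.68 (-2.08 ± 0.22, adjusted p = 5.44e-05). All 3 genes were lowest in E15 replicate 3, and OCM3 differed by -2.42 without it. FREM2, an extracellular matrix protein of epithelial basement membranes, differed by -2.17 ± 0.34, C9ORF152 by -1.83 ± 0.18, ALOX5AP, which activates leukotriene synthesis, by -1.66 ± 0.26 and the cell adhesion gene CHL1 by -1.61 ± 0.2. The E15 values of FREM2 and C9ORF152 lay below the array medians. PALLD (palladin), an actin-associated protein, differed by -1.82 ± 0.27 on a probe set that read 3.1 to 3.91 at E15, and by -0.13 on its other probe set. MYH1D, a sarcomeric myosin, and BHMT2, a homocysteine methyltransferase, completed the set at -1.53 ± 0.39 and -1.52 ± 0.4, and both missed the threshold without E15 replicate 3 (adjusted p = 0.19 and 0.21).

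The change with stage was next set against that of the distal femur, where 2 control arrays at E15 and 6 at E12/13 gave 1346 calls (12.2%), 579 higher (5.26%) and 767 lower (6.97%). The elements share no array. Both E15 femur arrays carry code 05, all E13 femur arrays 07 and the E12 femur arrays 05, 05 and 09. No femur difference between E15 and E13 can thus be taken within a code, and stage and code are partly tied. The methods state that 1 sample of the series was dropped as an outlier, without naming its group. Both elements called 452 probe sets in the same direction and 0 in opposite directions, which is 43.4% of the TBT calls and 33.6% of the femur calls. The difference between the TBT change and the femur change gave 0 calls with limma (smallest adjusted p 0.296), where 1152 probe sets had an unadjusted p under 0.05, so that no gene can be called particular to the TBT. Large changes had close counterparts in the femur: COMP rose there by 1.57 ± 0.29, ATP6V0D2 by 3.44 ± 0.71 and MMP10 by 2.88 ± 0.47, and OCM3 differed by -3.41 ± 0.49 and PENK by -2.23 ± 0.32.

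Some named genes lay apart in the elements without passing that test. NPR3 differed by 1.06 ± 0.19 in the TBT and -0.03 ± 0.21 in the femur (adjusted p of the difference 0.297), IRS4 by 0.65 ± 0.11 and -0.03 ± 0.13 (0.297), and SEC61G by 0.52 ± 0.09 and -0.1 ± 0.1 (0.296). IGF2, the fetal insulin-like growth factor, differed by -0.44 ± 0.17 in the TBT and 0.48 ± 0.2 in the femur (0.297). COL10A1 differed by 0.38 ± 0.32 and 1.17 ± 0.37, with an adjusted p of 0.574, and MMP13 by 0.54 ± 0.21 and 1.27 ± 0.25, with 0.447. The COL10A1 level in younger femur arrays ranged from 9.05 to 11.33, wider than the 11.02 to 11.63 of the TBT. The list medians in TBT and femur were 0.38 and 0.19 for hypertrophic genes, -0.27 and -0.13 for S phase, -0.01 and -0.21 for oxidative phosphorylation and -0.79 and -1 for skeletal muscle.

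**Figure D5:**
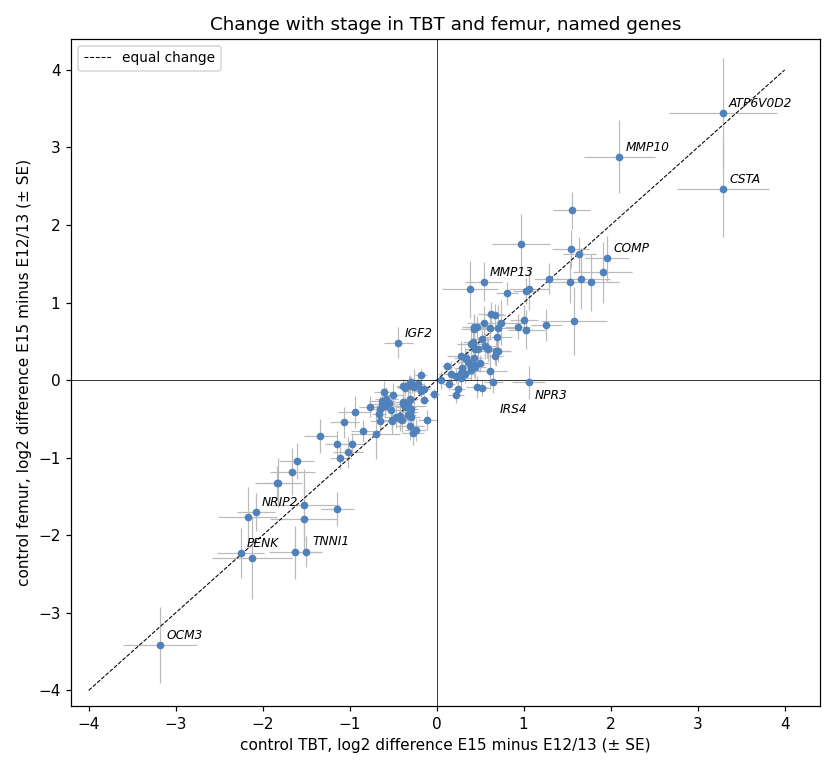
Log2 difference E15 minus E12/13 for the named genes in control TBT (x axis) and control femur (y axis), with standard errors from the limma fit as bars. The dashed line marks equal change. OCM3 lies near it (-3.18 and -3.41), while NPR3, IRS4 and IGF2 lie off it with differences short of the threshold.

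Immobilised TBT cartilage at E15 was measured in 3 arrays, and its comparison uses the same E15 control TBT arrays. The 2 sets of differences are therefore not independent, and for named genes only values are given. That comparison called 632 probe sets (5.74%), 317 higher (2.88%) and 315 lower (2.86%) in immobilised TBT. NRIP2 had a mean of 10.54 ± 0.22 (SD, n = 6) in the younger arrays, 8.45 ± 0.7 (n = 3) in E15 controls and 9.59 in immobilised TBT (9.42 to 9.88). SCUBE2 had 10.8, 9.66 and 10.47, BMPR1B 7.28, 6.17 and 7.01, CHL1 7.39, 5.79 and 7.13, and LGR5 6.54, 5.48 and 6.41 in the same order of groups. In each of these 5 genes, chosen after their values were seen, the immobilised mean lay between the means of the other groups. That order was not shared by most of the 12 largest falls: in 4 (NRIP2, C9ORF152, ALOX5AP and CHL1) the immobilised mean was above the E15 control mean and in 8 below it, such as OCM3 with 7.6, 4.41 and 3.07, ACTC1 with 9.42, 7.31 and 4.87 and BHMT2 with 8.7, 7.18 and 4.94. Of the rises, MMP10 had 7.92, 10.02 and 8.18, COMP 9.26, 11.22 and 10.34, and HBA1 11.12, 12.06 and 11.43. Of the 12 largest rises the immobilised mean was below the E15 control mean in 11 and above it in SERPINB10B. TNNI1 fell further in immobilised TBT, with 7.48, 5.98 and 4.41. These genes were picked through differences that use the same E15 control arrays, or after their values were seen. A test of immobilised against control arrays would therefore not be independent support for them.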

How the data were processed

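Growth cartilage RNA was hybridised to Affymetrix chicken arrays. The deposited log2 values were made by the authors by RMA (background correction, quantile normalization, probe set summary), for which the sample records name affy and the methods aroma.affymetrix. Versions and a genome build were not found in those sources, so no positions or sequences appear. RMA draws arrays towards 1 distribution, which can hide a shift of all genes. Of 20804 probe sets 12300 have 1 gene symbol in the platform annotation, 256 several and 8248 none. Those with a standard deviation above 10 on the linear scale over the 23 arrays were kept, as in the methods, leaving 11004.

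Groups came from the sample labels. The 8 group means were fitted with limma 3.58.1 in R 4.3.3, assuming a like spread in all groups, with Benjamini-Hochberg adjustment over the kept probe sets. The main contrast was E15 control TBT minus the average of the E12 and E13 group means. SAM, the methods' test, was an alternative, as were other filters, repeated quantile normalization, a trended robust prior, the 9 arrays alone, E12 and E13 as 1 group, identical probe sets counted once, blocks for array code or replicate number, and leaving out each array. Lists used 1 probe set a gene, that with the highest mean, and list counts over every member on the array were added after the data were seen.

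The rule for named genes took at most 12 rises and 12 falls, the largest among calls with 1 symbol and no overlap of arrays, then all growth plate landmarks, and from every other list the 4 members with the smallest p. Named outside this rule, after their values were seen, were LECT2, the defensins, LYG2, HBE, PVALB, MYOD1, TIMP3, HOXC10, DPT, ITGB2, PTPRC, CCND1, IGF2BP1, IGF2BP3, TOP2A, PTCH1 and GLI1. The arrays compared and the lists were chosen with earlier results of these data known. The authors' comparison tables were not used.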

Additional observations from a re-analysis of the deposited data

Results flagged for a closer look

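Among the 163 named genes and probe sets, 13 had an array in the younger group of 6 that stood apart from the other 5, by a gap of more than 0.625 of the group's whole range. Chance alone marks about 1 in 20 groups. E13 replicate 3 accounted for 6 of the 13: it was high for LECT2 (7.1, nearest array 4.89), AvBD6 (7.6, nearest 5.03), LYG2 (6.8, nearest 4.96) and DEFB4A (5.49, nearest 3.64), and low for FGFRL1 (9.19) and for the lipase gene LPL (9.41). LECT2, AvBD6, LYG2 and DEFB4A are heterophil granule genes named after their values were seen. Their flags are therefore not a fair count against the chance rate. E13 replicate 2 was high for MMP10 (8.65, nearest 7.85) and E12 replicate 3 for PENK (7.7, nearest 6.75). E12 replicate 2 was high for RRM1 (9.89) and for the respiratory complex I gene NDUFS1 (9.45). E12 replicate 1 was high for the ribosome assembly gene UTP3 (8.35) and low for the lactate transporter SLC16A3 (9.11) and for KLF10 (5.77). Groups of 3 arrays were not examined in this way.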

How the results depend on the processing

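The 1041 calls became 669 with the 9 control TBT arrays alone and 323 to 1048 when 1 array was left out, lowest without E15 replicate 3. SAM gave 1551 (490 higher, 1061 lower) at an estimated false discovery rate of 0.0495 over 84 relabellings. For E15 against E13 the 295 calls became 195 without the filter, 149 with the array code as a block and 58 to 424 with 1 array left out. For E15 against E12 the 969 became 616 with the code as a block and 392 to 1059 with 1 array left out. E13 against E12 and the TBT minus femur difference had 0 calls in every alternative run with limma. Values near 0 changed sign: MEF2C was -0.001 after repeated quantile normalization and -0.015 without E15 replicate 3, and ACAN was 0.02 without E15 replicate 2. With 1 array left out MEF2C ranged from -0.015 to 0.095 and ACAN from -0.06 to 0.02. Of 2909 values of named genes under the alternatives 2632 kept direction and side of the threshold, 238 lost the call and 36 gained it. Of 672 list medians 645 stayed on their side of 0. The causes were not tested.

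Replicate numbers did not pair the arrays: deviations of same-numbered arrays correlated at -0.07 to 0.08 and those of others at -0.1 to 0.1. With the replicate number as a block the calls were 1048, of which 963 were shared. Precision is limited by having 3 arrays a group, and probe sets below the array medians are nearest to background. Not every such reading is marked above.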
